A study of Homo sapiens with 6 samples.

Results

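Ribosome biogenesis genes and the transcription factor MYC were followed in RT-112 cells, an established line from a human bladder carcinoma, after silencing of PPP2R2A. Its product is one of the B subunits that give protein phosphatase 2A (PP2A) its substrates. The set holds 38 ribosome biogenesis and MYC target genes, named for their roles in the nucleolus and in ribosome assembly. It was chosen with earlier results of these data known, so counts and medians over it are descriptions without a test. A gene was measured where a probe set carried its symbol and no other, which was so for 31 of the 38 genes, among 19775 genes measured in all. Of the other 7, NOP56, DKC1, BOP1 and PPAN share their probe sets with other symbols, and GNL3, EBNA1BP2 and DDX18 are not named in the probe table used, so no value is given for these. All 31 measured genes passed the filter on dim signals, which kept 12735 genes.

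A ribosome is built in the nucleolus. RNA polymerase I transcribes the ribosomal RNA precursor, small nucleolar ribonucleoproteins (snoRNPs) guide its methylation and pseudouridylation, and a large set of assembly factors, helicases and GTPases cut, fold and package it into the small and the large subunit. MYC binds E-box DNA motifs and raises transcription of many of these factors as well as of polymerase I itself. PP2A is known to act on MYC protein by removing a stabilising phosphate, a step that RNA arrays do not measure. Whether the subunit encoded by PPP2R2A takes part in that step was not tested.

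The cells received a scramble control siRNA or 1 of 2 siRNAs against PPP2R2A, here siRNA 1 and siRNA 2, each at 50 nM with a lipid transfection reagent. They were plated at 50% confluence and transfected a second time after 24 h, and RNA was taken 24 h later. Each of the 3 groups has 2 oligonucleotide arrays, A and B, which the series' design text describes as technical duplicates, so p-values here measure only the spread between these arrays. Both siRNA groups were compared with the same scramble arrays, and the 2 comparisons are therefore not independent.

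Signals are linear intensities on the deposited scale, which sets the trimmed mean of every array near 500.07. Array medians lay between 69.3 and 76.2, and the correlation between duplicate arrays was 0.979 to 0.980. PPP2R2A read 1381 and 1589 on the scramble arrays, 336 and 397 with siRNA 1 and 510 and 533 with siRNA 2 (log2 changes -2.02 and -1.51, limma adjusted p = 0.0403 and 0.0461). These calls held in 5 and 3 of 15 other settings, in which the log2 changes lay between -2.14 and -1.42 for siRNA 1 and between -1.61 and -1.09 for siRNA 2. Its other probe sets above the filter gave -2.30 and -0.06 with siRNA 1 and -2.01 and -0.36 with siRNA 2. Of 12 epithelial and urothelial markers, 10 were above the array median on all 6 arrays and UPK3A, a uroplakin of differentiated urothelium, on none. Their summed signal was at least 136558 on the scramble and siRNA 1 arrays, and it was 124540 or less on both siRNA 2 arrays. Of the other cell types' markers, 1 of 5 fibroblast, 0 of 4 leukocyte and 2 of 4 endothelial genes measured were above it on all 6. The ACTB control probe sets, which compare the transcript's 3' and 5' ends and drop in 5' signal when RNA is degraded or labelled short, gave 3'/5' ratios of 5.43 and 5.94 on the scramble arrays, 6.52 and 7.82 with siRNA 1, and 7.47 and 12.4 with siRNA 2. The same ratio for GAPDH lay between 0.943 and 1.02, lowest on siRNA 2 array B, where that of ACTB was highest. Their part in the differences below was not tested.

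The promoters of these genes were rich in the canonical MYC-type E-box, CACGTG, which reads the same on both strands. The set was named in part for MYC targets, so a high share of this motif is not independent of that choice. RefSeq promoter windows of 300 bases (GRCh38.p14, from 250 bases before the gene start to 50 after) were at hand for 30 of the 38 genes, and 16 of them held the motif (53.3%). Of all 27305 genes with a window 8.77% held it, and of the 10294 tested genes with a window 12.4%. The looser pattern CANNTG, which contains CACGTG, was in 76.7% of the 30 genes against 73.1% of all genes. Of the 18 CACGTG matches in the windows of these genes, 15 began within 50 bases of the gene start (83.3%), against 36.9% of the 2821 matches in all windows. Windows of one gene can overlap, and a match is a description of sequence and not of binding.

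The 30-base stretches below show the motif near the start of 5 genes with different tasks, with CACGTG in capitals. They are MRTO4 (chr1:19251807-19251836, plus strand), PNO1 (chr2:68157885-68157914, plus strand), UTP20 (chr12:101280083-101280112, plus strand), FBL (chr19:39846356-39846385, minus strand) and PES1 (chr22:30591880-30591909, minus strand). Counted from the first transcribed base as 1, the motif begins at base 15 in MRTO4, 10 in PNO1, 7 in FBL and 14 in PES1, and at base -10 in UTP20.
MRTO4: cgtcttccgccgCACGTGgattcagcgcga
PNO1: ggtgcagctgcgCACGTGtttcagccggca
UTP20: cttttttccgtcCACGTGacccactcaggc
FBL: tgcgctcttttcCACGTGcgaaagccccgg
PES1: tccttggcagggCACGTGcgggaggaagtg

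The 250 bases before the start of 3 further genes are shown because their signals differed in different ways, DDX21 being lower with siRNA 1, NIP7 lower and DDX10 higher with both siRNAs. DDX21 (chr10:68956397-68956646) has the motif at base -31, again in capitals. The window of another DDX21 start (chr10:68955920-68956219), not shown, has no CACGTG. NIP7 (chr16:69339522-69339771) and DDX10 (chr11:108664819-108665068) have neither CACGTG nor CANNTG in these bases. All 3 are on the plus strand.
DDX21: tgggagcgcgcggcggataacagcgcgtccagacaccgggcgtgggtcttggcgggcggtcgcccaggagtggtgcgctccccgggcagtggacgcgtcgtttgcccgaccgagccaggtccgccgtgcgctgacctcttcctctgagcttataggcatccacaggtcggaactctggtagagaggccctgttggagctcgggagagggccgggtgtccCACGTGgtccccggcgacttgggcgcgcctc
NIP7: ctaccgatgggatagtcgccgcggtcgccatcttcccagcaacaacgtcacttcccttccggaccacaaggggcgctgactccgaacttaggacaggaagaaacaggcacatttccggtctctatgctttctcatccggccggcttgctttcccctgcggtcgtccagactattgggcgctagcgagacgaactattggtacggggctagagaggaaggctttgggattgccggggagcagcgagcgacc
DDX10: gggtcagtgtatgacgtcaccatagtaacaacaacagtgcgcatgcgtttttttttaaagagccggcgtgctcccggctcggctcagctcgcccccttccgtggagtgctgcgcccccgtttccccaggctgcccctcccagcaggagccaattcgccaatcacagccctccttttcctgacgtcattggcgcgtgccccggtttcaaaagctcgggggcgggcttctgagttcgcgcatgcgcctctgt

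The comparison of each siRNA with scramble asks whether ribosome assembly and MYC transcripts change when PPP2R2A is silenced. Most of the genes lay slightly below scramble, MYC among them, while DDX10 and RRS1 lay above it, and none of these differences passed the test. With siRNA 1, 28 of the 31 genes had a log2 change below 0, against 47.8% of all genes tested, and their median was -0.11 against 0.01 for all genes. With siRNA 2, 26 of 31 were below 0, against 47.6% of all genes, with a median of -0.15 against 0.02. The 11 epithelial and urothelial markers tested also lay lower with siRNA 2, with 8 below 0 and a median of -0.21. Of these markers 5 were lower at an unadjusted p under 0.05, against 8.76% of all genes, and limma called 0 of them. With siRNA 1 their median was -0.06, and their part in the values here was not tested. With siRNA 1 the lowest log2 change was that of NIP7 (-0.49), with siRNA 2 that of MYC (-0.48), and the highest in both was that of DDX10 (0.41 and 0.58).

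A gene was called at a limma adjusted p under 0.05, with Benjamini-Hochberg adjustment over all 12735 genes, and a change of at least 1.5-fold. By this rule limma called 0 of the 31 genes with siRNA 1, where it called 0.393% of all genes, and 0 with siRNA 2, where it called 0.597%. For the mean of both siRNAs it called 0, against 0.510% of all genes. At an unadjusted p under 0.05, 5 of the 31 were lower and 2 higher with siRNA 1, against 6.65% and 9.55% of all genes. With siRNA 2, 4 were lower and 2 higher, against 8.76% and 12.0%. A fit in which the prior variance follows mean intensity (an intensity trend) also called 0 of the 31 with either siRNA, against 2.35% and 3.71% of all genes, and gave 4 of them an adjusted p under 0.05 at less than 1.5-fold with each. At any fold this fit gave such an adjusted p to 5.06% of all genes with siRNA 1 and 9.76% with siRNA 2.

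**Figure D1:**
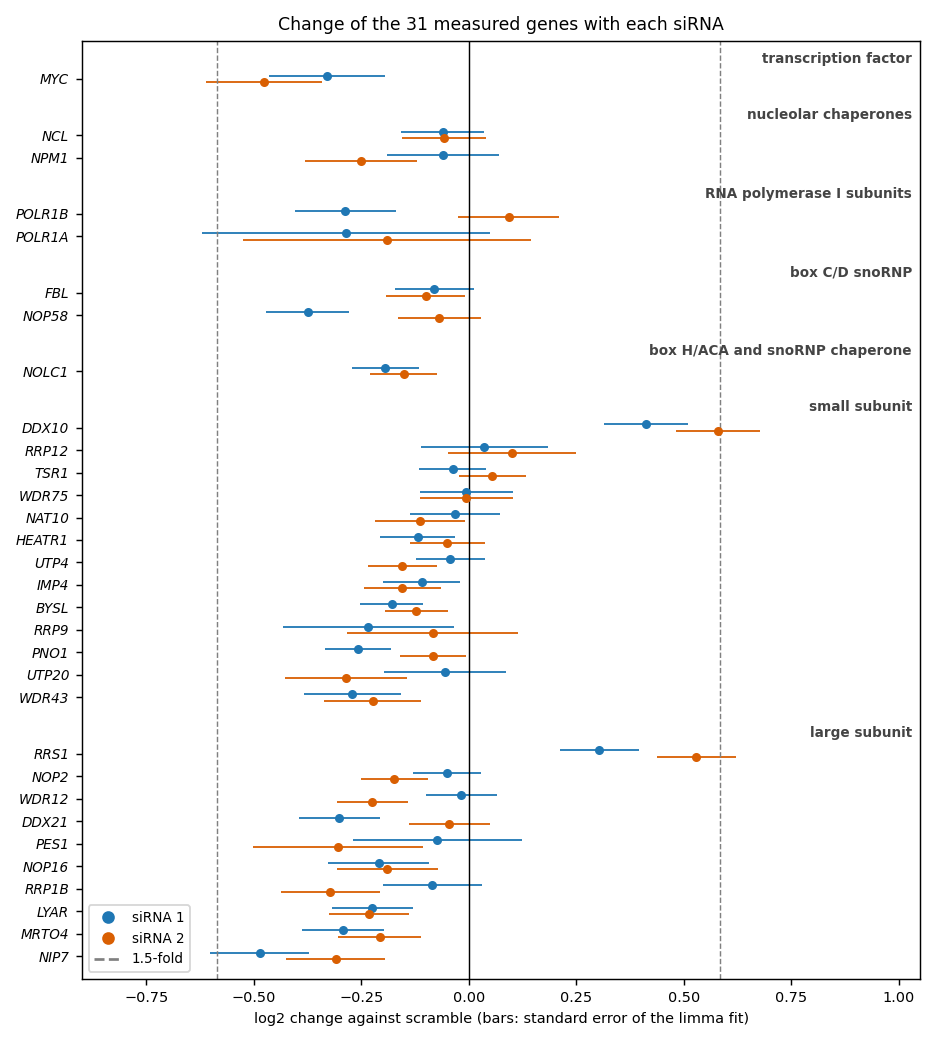
Log2 change against scramble of each of the 31 measured genes, grouped by role, with siRNA 1 (blue) and siRNA 2 (orange). Points are limma estimates over 2 arrays per group, bars their standard errors and dashed lines a 1.5-fold change. All points lie between the dashed lines, 28 of 31 to the left of 0 with siRNA 1 and 26 of 31 with siRNA 2, with DDX10 and RRS1 to the right.

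By the signals themselves, 18 of the 31 genes had both siRNA 1 arrays below both scramble arrays, which held for 22.7% of all genes, and 2 had both above (26.7% of all genes). With siRNA 2 the counts were 15 below (24.0% of all genes) and 3 above (28.4%). All 4 siRNA arrays lay below both scramble arrays for 12 genes, namely MYC, NOLC1, WDR43, UTP4, IMP4, BYSL, PNO1, NOP2, NIP7, MRTO4, RRP1B and LYAR, and above them for DDX10 and RRS1. Of all genes tested 10.6% had all 4 below and 14.7% all 4 above. The siRNA groups share the scramble arrays, so a low or high pair of scramble arrays enters both counts. On the log2 scale and relative to each gene's own mean over the 6 arrays, the median over the 31 genes was 0.0842 and 0.113 on the scramble arrays. It was -0.0431 and -0.0521 on the siRNA 1 arrays, and -0.0674 and 0.0133 on siRNA 2 arrays A and B, of which B also had the highest ACTB 3'/5' ratio. Without siRNA 2 array A the median change with siRNA 2 was -0.0943, with 20 of 31 genes below 0.

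**Figure D2:**
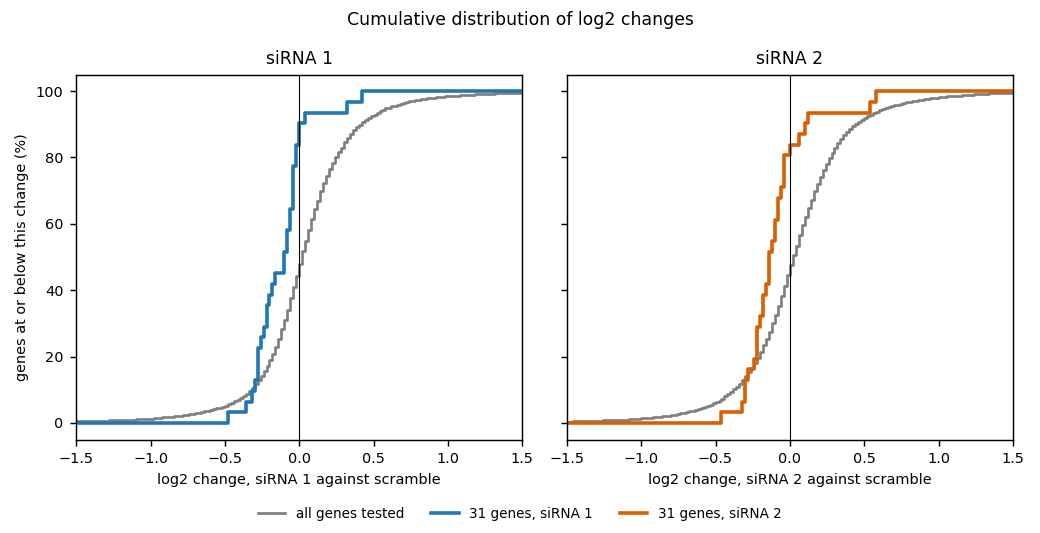
Cumulative share of genes (y axis, percent) at or below each log2 change against scramble (x axis) for siRNA 1 (left) and siRNA 2 (right). The coloured curve of the 31 genes crosses 0 at 90.3% with siRNA 1 and 83.9% with siRNA 2, and the grey curve of all 12735 tested genes at 47.8% and 47.6%.

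MYC itself was measured by 1 probe set. Its signal was 5393 and 4985 on the scramble arrays, 3687 and 4611 with siRNA 1, and 3632 and 3817 with siRNA 2. Every siRNA array was below both scramble arrays, and siRNA 1 array B was nearest to them. The siRNA 1 mean was 80.0% of scramble (log2 change -0.33 ± 0.13, standard error, limma adjusted p = 0.331), and the change was -0.17 without siRNA 1 array A and -0.49 without array B. The siRNA 2 mean was 71.8% of scramble (log2 change -0.48 ± 0.13, adjusted p = 0.154, unadjusted p = 0.0182). With an intensity trend the siRNA 2 value had an adjusted p = 0.0182 and still stood under 1.5-fold.

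NCL and NPM1 encode nucleolin and nucleophosmin, abundant nucleolar proteins that chaperone ribosomal RNA and proteins. NCL read 17649 and 16523 on the scramble arrays, 16236 and 16509 with siRNA 1 and 15446 and 17416 with siRNA 2, so the siRNA 2 arrays overlapped scramble and the siRNA 1 arrays lay just under it. NPM1 read 36285 and 36762 on the scramble arrays and 33728 and 36409 with siRNA 1. With siRNA 2 it read 27547 on array A and 34212 on array B, both below scramble, array B nearer to scramble than to array A (log2 change -0.25 ± 0.13, adjusted p = 0.361). Without array A the change was -0.094, and without array B it was -0.41. Its 2 other probe sets gave log2 changes of -0.24 and -0.24 with siRNA 2.

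POLR1A and POLR1B encode the 2 largest subunits of RNA polymerase I. POLR1A read 379.5 and 568 on the scramble arrays, and the siRNA arrays, 335 and 432 with siRNA 1 and 315 and 525 with siRNA 2, overlapped that wide range. The other POLR1A probe sets gave log2 changes of 0.03 and -0.02 with siRNA 1 and of -0.25 and -0.13 with siRNA 2. POLR1B read 2381 and 2487 on the scramble arrays, 2007 and 1981 with siRNA 1, and 2359 and 2852 with siRNA 2. Its siRNA 1 arrays were below all others (log2 change -0.29 ± 0.12, adjusted p = 0.330), while the siRNA 2 arrays spanned scramble (0.09 ± 0.12, adjusted p = 0.709). The other POLR1B probe sets were below 0 with both siRNAs. They gave log2 changes of -0.13, -0.14 and -0.32 with siRNA 1 and -0.13, -0.08 and -0.24 with siRNA 2.

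Of the snoRNP genes, FBL, fibrillarin, is the methyltransferase of box C/D particles and NOP58 one of their core proteins. FBL overlapped between all groups, with 8159 and 8868 on the scramble arrays, 8221 and 7868 with siRNA 1 and 7646 and 8233 with siRNA 2. NOP58 read 11598 and 11664 on the scramble arrays and 9234 and 8708 with siRNA 1, a separation wider than the gap between duplicates (log2 change -0.38 ± 0.096, unadjusted p = 0.0124, limma adjusted p = 0.193). With siRNA 2 it read 10453 and 11772, and array B exceeded both scramble arrays (-0.07 ± 0.096, adjusted p = 0.736). NOLC1, a chaperone of snoRNPs, read 8920.5 and 8762 on the scramble arrays, 7921 and 7536 with siRNA 1, and 7845 and 8071 with siRNA 2.

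The small subunit is assembled around the 5' part of the precursor by a large processome that includes WDR43, WDR75, HEATR1, UTP4, UTP20, RRP9, IMP4 and the helicase DDX10. Of the 13 genes in this class 11 were below 0 with siRNA 1 and 10 with siRNA 2, with medians of -0.06 and -0.08. DDX10 stood apart from the rest, at 1502 and 1455 on the scramble arrays, 1964 and 1972 with siRNA 1, and 2063 and 2364 with siRNA 2. All 4 siRNA arrays were above both scramble arrays (log2 changes 0.41 ± 0.098 and 0.58 ± 0.098, unadjusted p = 0.00946 and 0.00238, limma adjusted p = 0.173 and 0.0779). With an intensity trend its adjusted p was 0.0304 and 0.00379, with a siRNA 2 change just under 1.5-fold (49.3% higher). It has 1 other probe set, which did not pass the filter, with signals from 0.915 to 4.06. Averaged with that one, the changes were 0.13 and 0.093.

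PNO1, which binds the 3' end of the small subunit RNA before its last cut, read 3541 and 3701 on the scramble arrays and 2985 and 3069 with siRNA 1 (log2 change -0.26 ± 0.077, unadjusted p = 0.0219, adjusted p = 0.232). With siRNA 2 it read 3445 and 3392, nearer to scramble (-0.08, adjusted p = 0.602). UTP20 read 1284 and 1441 on the scramble arrays, 1229 and 1393 with siRNA 1, and 1009.9 and 1232 with siRNA 2, and only the siRNA 2 arrays were both below scramble (-0.29 ± 0.14, adjusted p = 0.342). RRP12, a factor in export of the subunits, read 708 and 739 on the scramble arrays. Its siRNA 1 arrays, 655 and 839.6, lay on either side of that, and siRNA 2 gave 733 and 821. BYSL, bystin, was lower with small but even gaps, at 1288 and 1271 on the scramble arrays, 1143 and 1116 with siRNA 1 and 1181 and 1171 with siRNA 2 (log2 changes -0.18 and -0.12). The other 8 genes, WDR43, WDR75, HEATR1, UTP4, RRP9, IMP4, TSR1 and the RNA acetyltransferase NAT10, lay at log2 changes between -0.27 and -0.01 with siRNA 1 and between -0.22 and 0.05 with siRNA 2. WDR75 was the nearest to 0, with siRNA means of 99.6% and 99.5% of scramble.

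The large subunit class holds 15 genes, of which 10 were measured, and 9 of these were below 0 with each siRNA, with medians of -0.15 and -0.22. NIP7, which takes part in late maturation of precursor RNA, read 4410.4 and 4062 on the scramble arrays, 3288 and 2774 with siRNA 1, and 3371 and 3462 with siRNA 2. All 4 siRNA arrays were below both scramble arrays, at 71.5% and 80.6% of the scramble mean (log2 changes -0.49 ± 0.12 and -0.31 ± 0.12, unadjusted p = 0.00936 and 0.0461, limma adjusted p = 0.173 and 0.231). A second NIP7 probe set gave smaller log2 changes of -0.15 and -0.16, with siRNA arrays that overlapped scramble. MRTO4, a relative of a ribosomal stalk protein whose place it holds during assembly, read 1772 and 1679 on the scramble arrays, 1349 and 1471 with siRNA 1 and 1430.0 and 1560.1 with siRNA 2 (-0.29 and -0.21, adjusted p = 0.261 and 0.313).

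DDX21, a nucleolar helicase, read 19944 and 20378 on the scramble arrays and 16557 and 16174 with siRNA 1 (log2 change -0.30 ± 0.094, unadjusted p = 0.0263, adjusted p = 0.243). The siRNA 2 arrays, 18346 and 20779.8, spanned scramble. Its second probe set gave log2 changes of -0.28 with siRNA 1 and -0.0013 with siRNA 2. WDR12 and PES1 belong with BOP1 to the PeBoW complex of large subunit assembly. WDR12 read 3457 and 3659.6 on the scramble arrays, 3621 and 3409 with siRNA 1, and 3030.4 and 3057 with siRNA 2, and only the siRNA 2 arrays stood apart (-0.22 ± 0.082, unadjusted p = 0.0439, adjusted p = 0.226). PES1 overlapped between all groups, with 2173 and 1807 on the scramble arrays, 1679 and 2112 with siRNA 1 and 1410.2 and 1824 with siRNA 2.

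RRP1B, a nucleolar protein that also binds a protein phosphatase 1 subunit, read 6844 and 7352 on the scramble arrays, 6634 and 6743 with siRNA 1 and 5192 and 6195 with siRNA 2. Its siRNA 2 arrays were the lowest (log2 change -0.32 ± 0.12, unadjusted p = 0.0406, adjusted p = 0.219). RRS1, which helps load the 5S ribonucleoprotein onto the large subunit, was the 1 gene of its class above 0, at 2029.8 and 2069 on the scramble arrays, 2681 and 2387 with siRNA 1, and 2954 and 2962 with siRNA 2. All 4 siRNA arrays were above scramble (0.30 ± 0.091 and 0.53 ± 0.091, unadjusted p = 0.0226 and 0.00258, adjusted p = 0.234 and 0.0789). With an intensity trend the siRNA 2 value had an adjusted p = 0.00383 at 44.3% higher. LYAR, NOP16 and the RNA methyltransferase NOP2 had log2 changes between -0.22 and -0.05 for siRNA 1 and between -0.23 and -0.17 for siRNA 2.

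**Figure D3:**
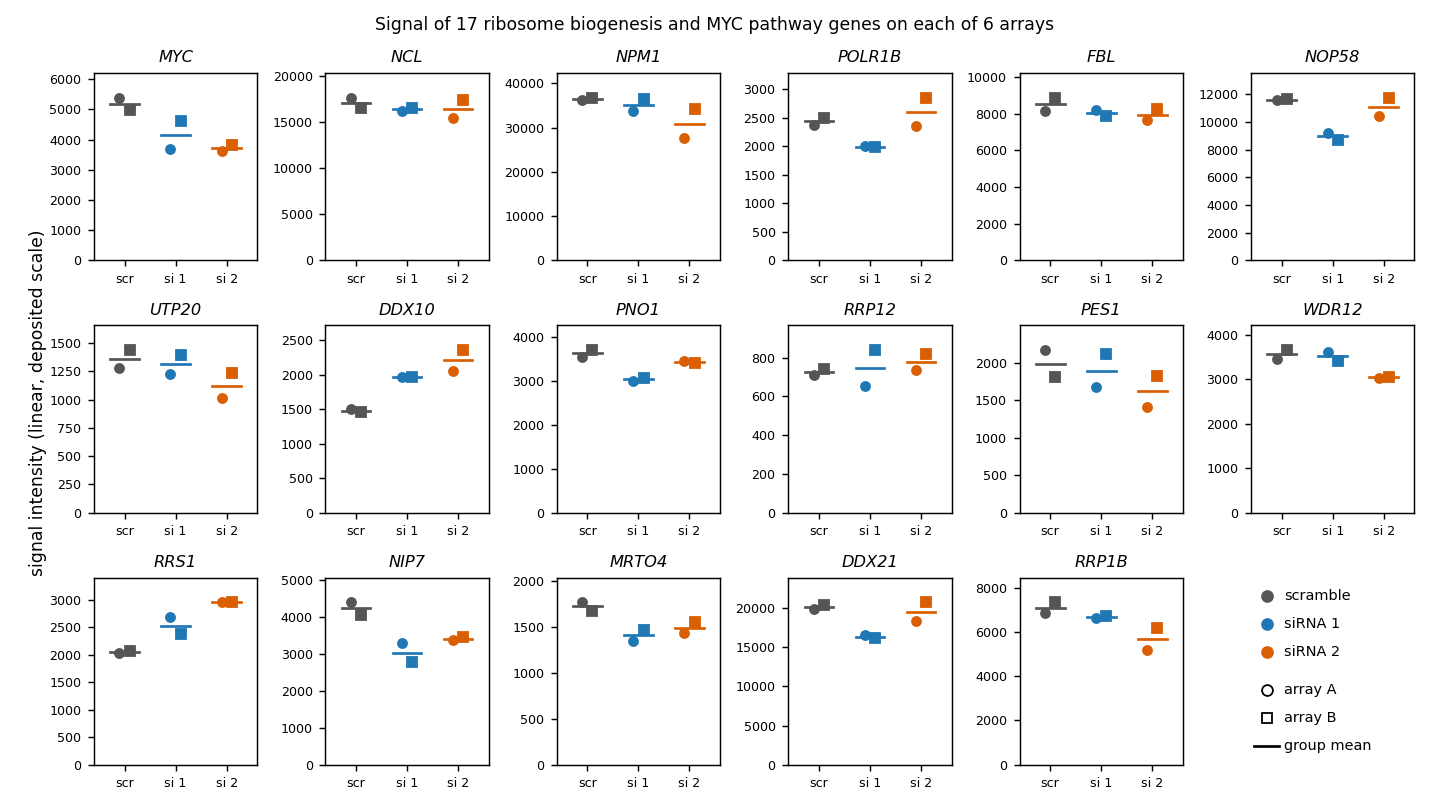
Signal intensity (y axis, linear, from 0) of 17 genes on each array, for scramble (scr, grey), siRNA 1 (si 1, blue) and siRNA 2 (si 2, orange). Circles are array A, squares array B and lines group means. Against both scramble arrays, DDX10 and RRS1 are higher and MYC, NIP7, PNO1, MRTO4 and RRP1B lower on all 4 siRNA arrays. NCL, NOP58, POLR1B and DDX21 are lower on both siRNA 1 arrays only, and NPM1, UTP20 and WDR12 on both siRNA 2 arrays only.

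The siRNAs were also compared with each other, a difference of means that the scramble arrays do not enter, although its standard errors pool the spread of all 3 groups. Limma called 0 of the 31 genes, against 0.212% of all genes, and 18 of 31 lay lower with siRNA 1, with a median log2 difference of -0.04 (siRNA 1 minus siRNA 2), against 51.2% of all genes and a median of -0.0073. At an unadjusted p under 0.05, 3 genes were lower with siRNA 1 and 0 higher, against 9.53% and 9.16% of all genes. These were POLR1B (log2 difference -0.38 ± 0.12, unadjusted p = 0.0246, limma adjusted p = 0.203), NOP58 (-0.31 ± 0.096, unadjusted p = 0.0257, adjusted p = 0.206) and DDX21 (-0.25 ± 0.094, unadjusted p = 0.0453, adjusted p = 0.257). For all 3 both siRNA 1 arrays were below both siRNA 2 arrays. This held for 9 of the 31 genes and for 3372 of all 12735 genes tested. Both lay above for 5 of the 31 and for 3084 of all genes. The 3 genes were picked by p on the same arrays, so their separation adds no support. The 3 other POLR1B probe sets gave smaller differences of 0.0075, -0.07 and -0.08, while the second DDX21 probe set gave -0.28. The largest differences the other way were those of RRP1B (0.24), UTP20 (0.23) and PES1 (0.23), with adjusted p from 0.357 to 0.591.

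Of the 31 genes 17 had other probe sets above the filter, 31 probe sets in total. With siRNA 1, 29 of these had the sign of the gene's brightest probe set and 26 were below 0, with a median log2 change of -0.15. With siRNA 2, 22 had the same sign and 25 were below 0, with a median of -0.13. For PNO1 the other probe sets gave log2 changes of -0.17 and -0.63 with siRNA 1 and -0.34 and -0.30 with siRNA 2, all in the direction of the brightest one. For MRTO4 they were -0.31 and -0.10, and for RRP1B -0.06 and -0.34. WDR12 was mixed, at -0.49 and -0.32 with siRNA 1 and 0.06 and -0.17 with siRNA 2. The dim other probe sets of RRP12 lay between 0.18 and 1.24 for siRNA 1 and between -1.05 and 0.77 for siRNA 2, and that of NCL gave -0.16 and -0.25.

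The presence of CACGTG was set beside the changes for the 25 measured genes with a promoter window. The 14 genes with the motif were all below 0 with both siRNAs, with a median log2 change of -0.14 for siRNA 1 (lowest -0.30, highest -0.03) and of -0.15 for siRNA 2 (lowest -0.30, highest -0.05). Of the 11 without it 10 were below 0 with siRNA 1 (median -0.06, from -0.49 to 0.41) and 8 with siRNA 2 (median -0.06, from -0.31 to 0.58). The ranges overlap, and the gene with the lowest value with siRNA 1, NIP7, is among those without the motif. MYC, NOP58, NOLC1, RRP12, RRS1 and RRP1B were measured but have no window, so they are in neither set. Of these, RRS1 (0.30 and 0.53) and RRP12 (0.04 and 0.10) were above 0 with both siRNAs and the others below. UTP20 and PES1 with siRNA 1 and DDX21 with siRNA 2, which have the motif, changed sign in fits without 1 array. None of the 25 was called, and the difference between the 2 sets was not tested.

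**Figure D4:**
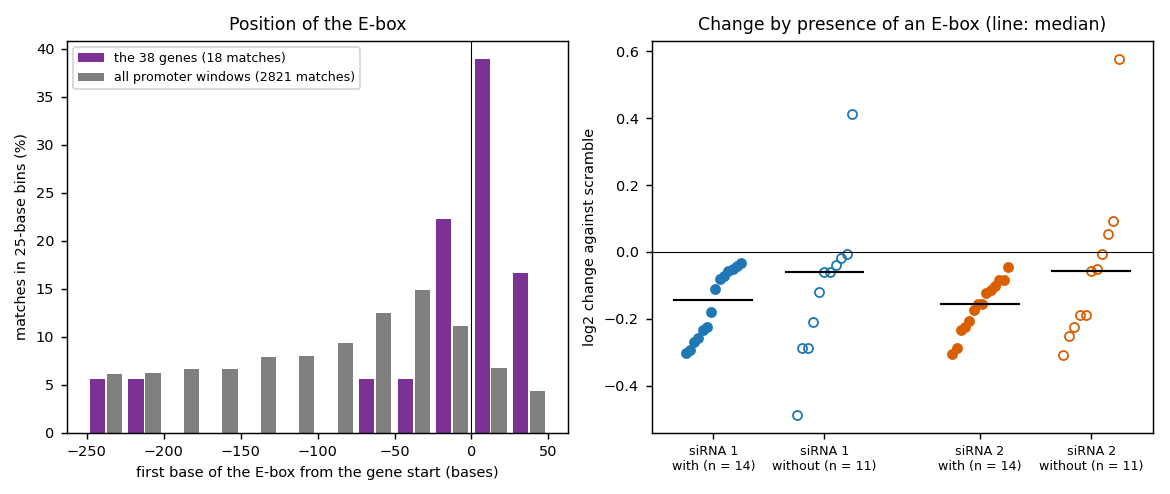
Left, position of the CACGTG E-box relative to the gene start (x axis, bases) as percent of matches per 25-base bin, for the genes described here (purple, 18 matches) and all promoter windows (grey, 2821 matches). Right, log2 change against scramble of measured genes that have a promoter window, with (filled, n = 14) and without (open, n = 11) the motif. Lines are medians. The purple bars gather around the start, and all filled points lie below 0.

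Other genes of ribosome assembly were taken from lists that exclude the 31. Of 42 other small subunit factors tested, 35 were below 0 with siRNA 1 (median log2 change -0.11) and 23 with siRNA 2 (median -0.03). Of 41 other large subunit factors, 29 and 28 were below 0 (medians -0.08 and -0.05). The 14 other genes of the RNA polymerase I machinery had 11 below 0 with each siRNA (medians -0.11 and -0.18). By limma 0 of the genes of these 3 lists were called with either siRNA. At an unadjusted p under 0.05 and with siRNA 1, the counts were 5 lower among small subunit factors, 1 lower and 1 higher among large subunit factors and 0 among polymerase I genes. With siRNA 2 they were 9 lower, 3 lower and 2 higher, and 3 lower. Over all genes tested, 6.65% were lower and 9.55% higher at this p with siRNA 1, and 8.76% and 12.0% with siRNA 2. Limma called 0.393% and 0.597% of all genes. The same shares are the background for the lists that follow.

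Ribosomal protein genes, the products of which are the building blocks themselves, had small log2 changes and none passed the test. Of 54 tested, 39 were below 0 with siRNA 1 (median log2 change -0.03) and 51 with siRNA 2 (median -0.10), and the lowest value with either was -0.35. Limma called 0 of them. At an unadjusted p under 0.05, 2 were lower and 1 higher with siRNA 1 and 0 with siRNA 2. Between the siRNAs 10 of the 54 were lower with siRNA 1 (median log2 difference 0.06).

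Of 11 other snoRNP and snoRNP assembly proteins, ZNHIT6, which helps assemble box C/D particles, was called. It read 1877 and 1764 on the scramble arrays, 3261 and 3664 with siRNA 1 and 3747 and 3542 with siRNA 2. It rose with siRNA 2, by a log2 change of 1.00 (limma adjusted p = 0.0462), and stood at 0.93 with siRNA 1 (limma adjusted p = 0.0592). A second ZNHIT6 probe set gave -0.37 and -0.55, and the siRNA 2 call held in 3 of 15 other settings. Of the 11 genes 8 were below 0 with siRNA 1 and 7 with siRNA 2 (medians -0.15 and -0.03).

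Of 37 other genes that MYC is known to induce, 25 were below 0 with siRNA 1 and 24 with siRNA 2 (medians -0.08 and -0.08). ODC1, ornithine decarboxylase of polyamine synthesis, had higher signals on all siRNA arrays, from 2583 and 2853 on the scramble arrays to 4517 and 4169 with siRNA 1 and 6672 and 5949 with siRNA 2. It rose with siRNA 2, by a log2 change of 1.21 (limma adjusted p = 0.0461), and stood at 0.68 with siRNA 1 (adjusted p = 0.0934). The siRNA 2 call held in 3 of 15 other settings, and in 0 of the 6 that leave out an array. Of 11 genes that MYC is known to repress, 8 were above 0 with siRNA 1 (median 0.08) and 5 with siRNA 2 (median -0.15), and limma called 0. At an unadjusted p under 0.05, 4 of these were higher and 1 lower with siRNA 1, and 3 higher and 1 lower with siRNA 2.

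The MYC network list covers partners, antagonists and regulators of MYC protein. Of 23 tested, 11 were below 0 with siRNA 1 and 13 with siRNA 2 (medians 0.02 and -0.02). SKP2, an F-box protein of a ubiquitin ligase that acts on MYC, fell with siRNA 2, from 8375 and 8701 to 5092 and 4803 (log2 change -0.79, limma adjusted p = 0.0490), a call that held in 2 of 15 other settings. With siRNA 1 it read 6959 and 7238 (-0.27, adjusted p = 0.240). MAX, the dimer partner of MYC, read 2116 and 2247 on the scramble arrays, 2235 and 2044 with siRNA 1 and 2121 and 2457 with siRNA 2, with overlap throughout. CIP2A, an inhibitor of PP2A that stabilises MYC, read 959 and 851 on the scramble arrays, 679 and 712 with siRNA 1 (log2 change -0.38, unadjusted p = 0.0167, adjusted p = 0.212) and 947 and 863 with siRNA 2. PPP2R5A, a PP2A subunit linked to MYC turnover, and FBXW7, a ubiquitin ligase subunit for MYC, stood at log2 changes of 0.05 and -0.34 with siRNA 1 and -0.16 and -0.18 with siRNA 2, and neither was called. The 2 other FBXW7 probe sets above the filter read higher than scramble, at 0.26 and 0.22 with siRNA 1 and 0.23 and 0.06 with siRNA 2. A second CIP2A probe set gave -0.64 and -0.12, and a second SKP2 probe set -0.42 and -0.55. The 4 other MAX probe sets lay between -0.06 and 0.24 for siRNA 1 and between -0.38 and 0.33 for siRNA 2.

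**Figure D5:**
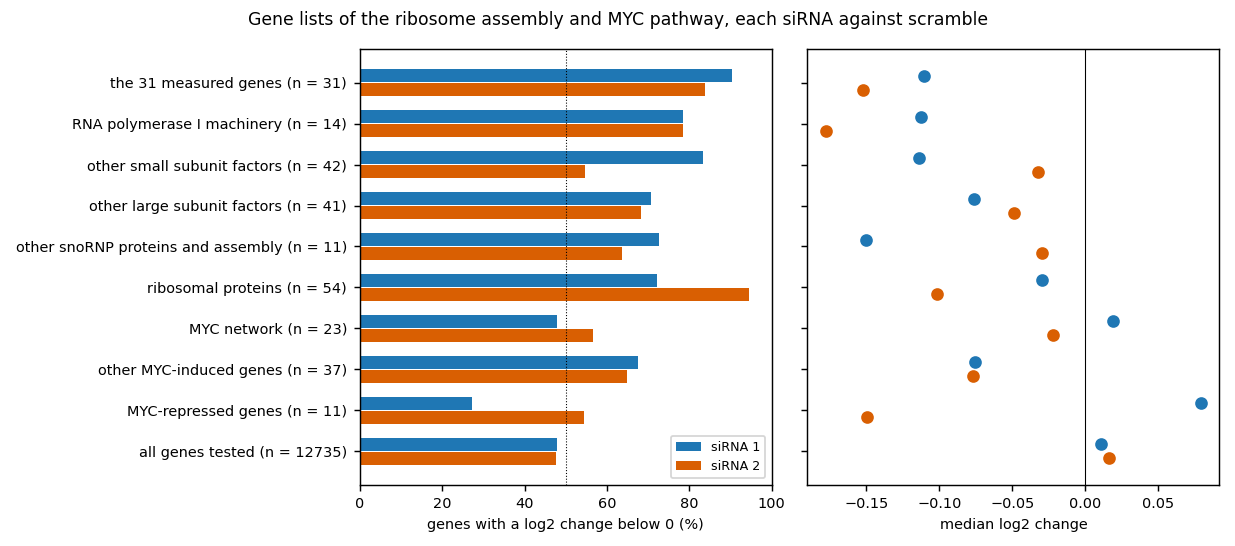
Share of genes with a log2 change below 0 (left, percent, dotted line at 50) and median log2 change (right) for the 31 genes, other lists of the pathway and all genes tested, with siRNA 1 (blue) and siRNA 2 (orange). Shares below 0 were 90.3% and 83.9% for the 31 genes, 83.3% and 54.8% for other small subunit factors, 78.6% with each siRNA for the RNA polymerase I machinery and 72.2% and 94.4% for ribosomal proteins, and all medians lie within 0.18 of 0.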

How the data were processed

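The authors deposited 1 table of linear signal intensity for 54675 probe sets on 6 arrays. They were made with Affymetrix Expression Console, per the submitters' processing notes, with version, algorithm and detection calls not given in the sources used here. Groups and the duplicate letters A and B came from the sample titles.

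Intensities were used on the scale log2(signal + 1). Of the probe sets, 41091 carried 1 symbol, 1801 several and 11721 none, and 62 were controls. Gene symbols were read from the platform annotation, and 41037 of them were found by Entrez identifier in a RefSeq table of GRCh38.p14. For each gene the brightest probe set, by mean log2 signal over the 6 arrays, was kept. It was tested where its signal was above the 50th percentile of the array on 2 or more arrays. limma 3.58.1 in R 4.3.3 was fitted to all genes with a coefficient per group (3 residual and 1.72 prior degrees of freedom), and the fit was tested on simulated data. Medians over a list carry no test. The precision is limited by the number of arrays.

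Genes with values in the text were MYC, NCL, NPM1, FBL, those with an unadjusted p under 0.05 in a comparison and the 3 highest and 3 lowest of each, with their other probe sets above the filter. From the other lists they were called genes and MAX, CIP2A, PPP2R5A and FBXW7. POLR1A, NOLC1 and BYSL are given with array values as well. These and other genes are named after their values were seen. The genes and lists were chosen with earlier results of these data known. Other settings were quantile normalization, centring arrays on medians, a replicate block, an intensity trend, a pseudocount of 16, no filter, averaging all probe sets per gene, probe sets specific to one gene, the compared groups alone, and leaving out each array. For the setting of probe sets specific to a gene, those with suffix _s_at, _x_at or _a_at were left out where the gene had others. Genes without others, such as MYC, NPM1 and FBL, kept theirs, so their values were not checked in that setting. Plots used matplotlib 3.10.9 (Python 3.11.15).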

Additional observations from a re-analysis of the deposited data

How the results depend on the processing

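The count of called genes among the 31 was 0 in each comparison and in all 15 other settings, except that the compared groups alone could not be used for the mean of both siRNAs. Deviations of same-lettered arrays correlated at -0.0309, 0.0139 and 0.0383 over genes. With 2 arrays per group these values cannot show whether same-lettered arrays were handled together. Median signals on arrays A and B were 70.9 and 76.2 for scramble and 70.5 and 76.1 for siRNA 1, but 75.2 and 69.3 for siRNA 2. With the replicate block the median log2 values of the 31 genes stayed at -0.11, -0.15 and -0.04. Limma then called 0 of all genes with either siRNA, against 50 and 76 without the block. With it, 1921 and 2485 genes had an unadjusted p under 0.05. Calls over all genes were 299 and 472 with an intensity trend, 11 and 1 with centred arrays, 65 and 162 with a pseudocount of 16, 17 and 4 with probe sets specific to one gene, and 0 and 0 without the filter, with the mean of probe sets, with the compared groups alone and without any 1 array. The siRNA 1 median ranged from -0.14 to -0.10 without 1 array and the siRNA 2 median from -0.15 to -0.0943, the latter without siRNA 2 array A. The median difference between the siRNAs ranged from -0.0631 to 0.0285 and was 0.00059 with probe sets specific to one gene.

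Of 51 log2 changes of the 17 genes with values, 34 kept their sign in every setting and 17 did not. The cause of these reversals was not tested. With the mean of probe sets the siRNA 1 change of PES1 became 0.095, the siRNA 2 changes of POLR1B and PES1 became -0.088 and 0.15, and the differences between the siRNAs became 0.045 for NCL, 0.034 for DDX10, 0.34 for RRP12, -0.052 for PES1 and -0.16 for WDR12. The only other PES1 probe set did not pass the filter, with signals from 2.70 to 7.34. With probe sets specific to one gene POLR1B became -0.13 with siRNA 2. The differences between the siRNAs then became 0.0075 for POLR1B and 0.092 for NCL. Centring gave FBL a difference of -0.0013, and quantile normalization gave DDX21 0.030 with siRNA 2. Without 1 array, the siRNA 1 changes ranged from -0.15 to 0.034 for UTP20, -0.14 to 0.22 for RRP12, -0.24 to 0.092 for PES1 and -0.061 to 0.026 for WDR12. The siRNA 2 changes ranged from -0.14 to 0.028 for NCL, -0.045 to 0.23 for POLR1B, -0.15 to 0.017 for NOP58 and -0.14 to 0.044 for DDX21. The differences between the siRNAs ranged from -0.014 to 0.31 for MYC, -0.089 to 0.084 for NCL, -0.034 to 0.073 for FBL and -0.24 to 0.11 for RRP12.

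Of the 34 changes of these 17 genes against scramble, 12 kept their sign but moved by over 1.5 times without 1 array, and 12 did so with the mean of probe sets. Without 1 array the siRNA 2 change ranged from -0.43 to -0.14 for UTP20, -0.49 to -0.12 for PES1 and -0.45 to -0.20 for RRP1B. With the mean of probe sets NIP7 was at -0.32 with siRNA 1.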
